A study of Mus musculus with 12 samples.

Results

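Cadherins of 10 genes were followed in the mouse osteosarcoma lines Dunn and LM8: Cdh1, Cdh2, Cdh3, Cdh4, Cdh5, Cdh6, Cdh10, Cdh11, Cdh13 and Cdh15. Members were the listed genes that had a probe whose RefSeq accession belongs to them, and all 10 had one, with 14 probes in all, out of 20144 genes and 39429 probes on the array. Dunn is a parental line of low metastatic potential, and LM8 was derived from it by selection for metastasis in mice. Both are osteoblastic lines grown without any treatment, and early cells were compared with cells kept in culture to a late passage. RNA of 3 samples per group was labelled with Cy3 and hybridised to Agilent mouse arrays of 1 colour. The paper does not say whether these samples came from separate cultures. The groups were early Dunn cells at passage 25 (Dunn_25), late Dunn cells at passage 86 (Dunn_86), early LM8 cells at passage 24 (LM8_24) and late LM8 cells at passage 91 (LM8_91). Late cells were grown from the early ones, so each line stands for 1 culture history, and the cells of a group were thawed from frozen stocks.

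Cadherins are calcium-dependent adhesion receptors. The outer domains of classical cadherins bind cadherins on the neighbouring cell, and their tails bind beta-catenin and p120-catenin, which link the junction to actin through alpha-catenin. Cells of the osteoblast lineage are known for Cdh11 (osteoblast cadherin) and Cdh2 (N-cadherin), while Cdh1 (E-cadherin) marks epithelia and Cdh5 (VE-cadherin) marks endothelium. Of the genes listed, Cdh13 (T-cadherin) is not classical in the strict sense, since it has a lipid anchor in place of the catenin-binding tail. Levels are given as log2 signal relative to the 75th percentile of the same array, so that 0 is that percentile and a difference of 1 is 2-fold. A probe was counted as well above background where the scanner software marked it so. Levels of different probes are not comparable with each other, and in RNA of whole cultures fewer cells that express a gene and less RNA per cell cannot be told apart.

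Both lines carried the osteoblast markers. Between 6 and 10 of 10 measured markers were well above background on each array, among them Col1a1, Sp7 and Runx2 on all 12. A marker whose spots were flagged as outliers counts as not above background. On early Dunn replicate 3, the array with 6, this holds for Col1a2, Spp1 and Sparc, so low counts are not all dim signals. The osteoblast marker Phex was higher in LM8 than in Dunn cells, early by a log2 difference of 4.34 (SE 0.74, adjusted p = 0.0307) and late by 3.12 (SE 0.43, adjusted p = 0.026), and the neural marker Tubb3 was higher in late LM8 than in late Dunn cells by 2.46 (SE 0.35, adjusted p = 0.0299). None of these 3 calls held with the slide as a block (adjusted p from 0.0501 to 0.12), and the part of these differences in those of the cadherins was not tested. The lists as a whole were mixed. Over 2-fold at an unadjusted p under 0.05, 1 osteoblast marker was higher and 2 lower in early LM8 cells (list median -0.05, 38.6% of all probes). Between the late lines 3 were higher and 0 lower (0.51, 12.8% of all probes). Of the neural markers 1 was higher and 1 lower there, with a list median of -1.2. Early Dunn arrays were the dimmest group, with a 75th percentile between 287.2 and 603 (685.9 to 1903 elsewhere) and 39% to 49% of probes well above background (52.4% to 59.6% elsewhere), which moves with every comparison that includes them. One library stood apart. Late Dunn replicate 1 correlated with the other late Dunn arrays at 0.919 and 0.923 over all probes, whereas those correlated at 0.986 with each other. On this array alone, 3162 probes (8.02%) were well above background, against at most 546 on any other single array. It also had 7 of 10 epithelial markers well above background, against 0 to 6 elsewhere, and their summed linear level was 1.59 times the 75th percentile, against 0.121 to 0.434 on the other arrays. Of 9 endothelial markers it had 5 (2 to 4 elsewhere) and of 7 skeletal muscle markers 3 (0 to 2 elsewhere), with a summed level of 0.733 for muscle (0.0577 to 0.223 elsewhere). Of 6 neural markers it had 3 (0 to 3 elsewhere), and of 5 macrophage and blood markers 3 (2 to 3 elsewhere). Over all probes, 59.6% were well above background on this array, and these counts are to be read beside that share. Its summed level was within the range elsewhere for endothelial markers (4.65, against 3.49 to 12.9) and for macrophage and blood markers (6.43, against 4.67 to 13.9). For neural markers it was 0.508 (0.0995 to 0.427 elsewhere). The part of this array's differences in the results was not tested, and each result that rests on it is given with and without it. Each slide held 1 array of every group in the same order, so that the position on the slide and the group cannot be told apart.

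**Figure D1:**
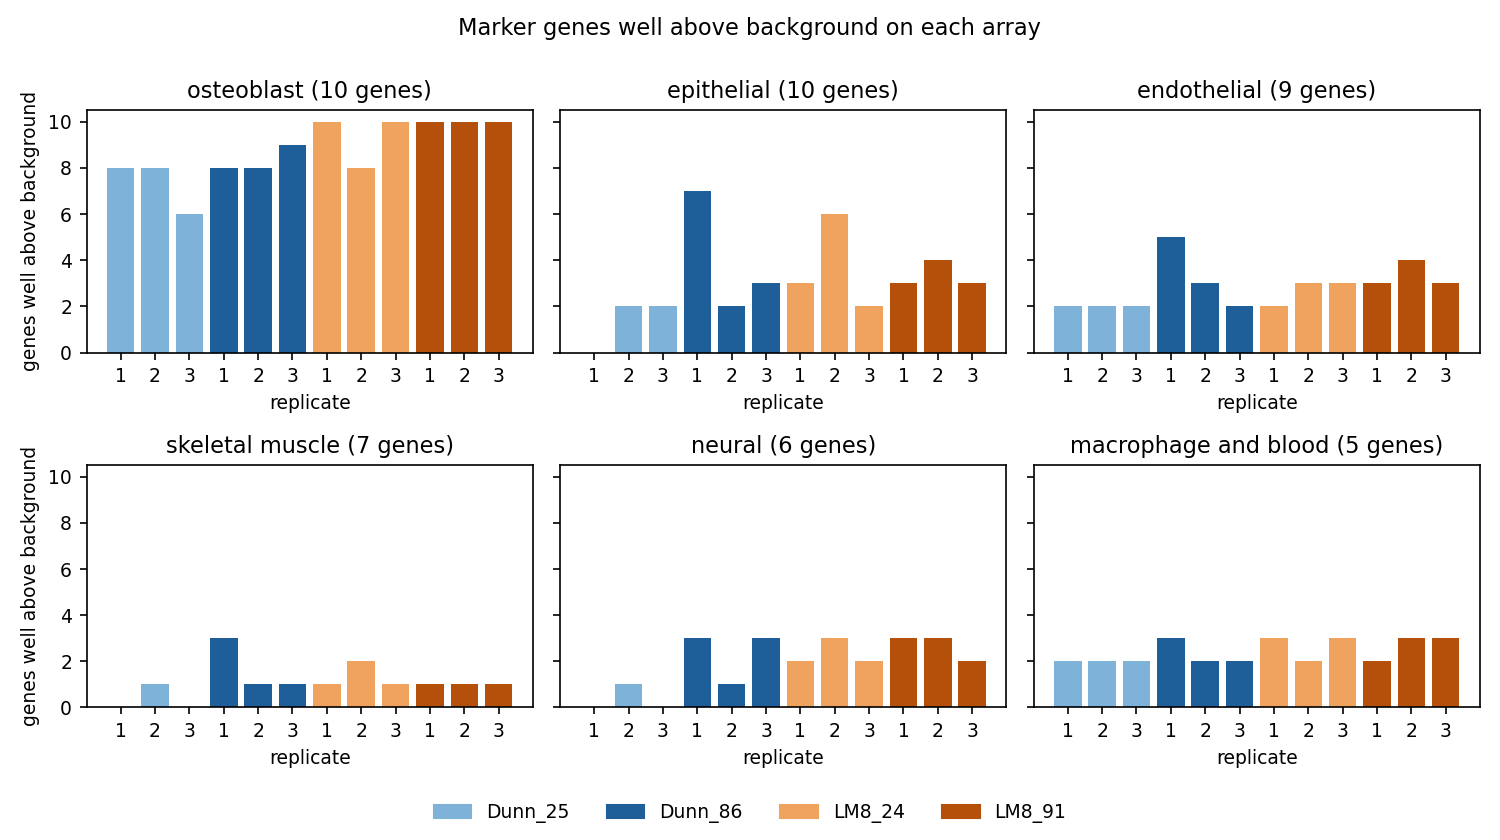
Number of marker genes well above background (vertical axis) on each of the 12 arrays (horizontal axis: replicate, colours: group), by cell type list with the number of genes measured. Osteoblast markers were present on every array, and late Dunn replicate 1 had 7 of 10 epithelial markers. Genes whose spots were flagged as outliers on an array count there as not above background.

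Cdh11, Cdh3, Cdh2 and Cdh15 had a signal well above background on more than 1 array, and by this mark they divided by line. The first of these pairs was found on Dunn arrays. The second was found on every LM8 array and, among the Dunn arrays, on late replicate 1. For Cdh15 this was not a division by level. Early Dunn replicate 1, at -5.58, lay above every early LM8 array (-6.08 to -5.91) but was not well above background. The lowest signal counted as such was -3.58 on that array and -6.63 to -6.30 on early LM8 arrays. Cdh6, Cdh10 and Cdh13 were well above background on late Dunn replicate 1 and on no other array. Cdh1, Cdh4 and Cdh5 were well above background on no array.

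**Figure D2:**
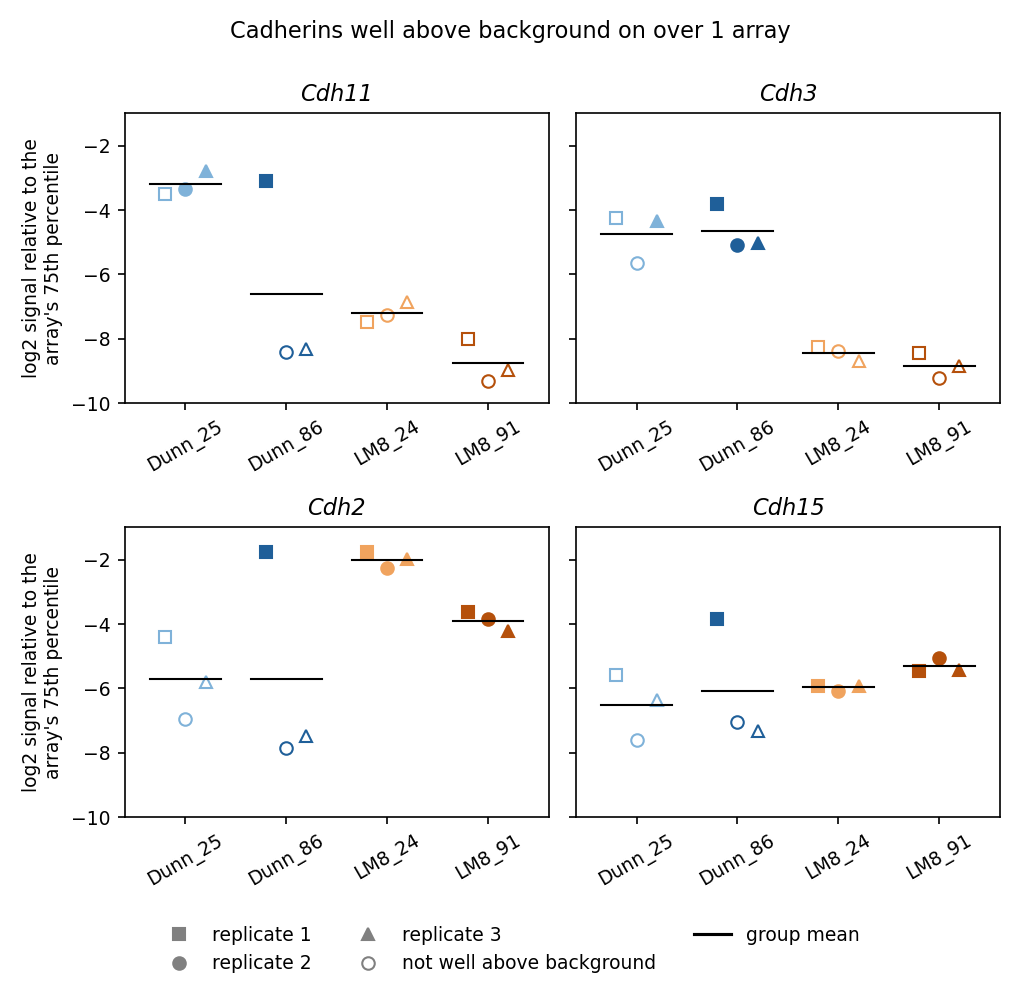
Log2 signal relative to the array's 75th percentile (vertical axis) of the 4 cadherins that were well above background on more than 1 array, by group (horizontal axis). Each symbol is 1 array, with its shape giving the replicate, open symbols are not well above background, and black lines are group means. Cdh11 and Cdh3 are filled on Dunn arrays alone, and Cdh2 and Cdh15 on all 6 LM8 arrays and late Dunn replicate 1.

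Cdh11, a type II cadherin of mesenchymal cells, was at -3.49, -3.35 and -2.78 in early Dunn replicates 1 to 3. The first of these was not well above background, on an array where the lowest signal counted as such was -3.58. In late Dunn cells it was at -3.10 on replicate 1, well above background, and at -8.41 and -8.31 on replicates 2 and 3, which were not. The LM8 arrays ranged from -7.46 to -6.85 early and from -9.31 to -8.00 late, none of them well above background. Every early Dunn array thus lay above every LM8 array, and the late Dunn arrays were split, with replicate 1 at the early level. The second Cdh11 probe was well above background on no array, and over the 12 arrays it followed the first at r = 0.921, given as a description since both probes share each array's scaling.

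Cdh3 (P-cadherin, a type I cadherin best known from basal epithelium) was at -4.25, -5.64 and -4.35 in early Dunn replicates 1 to 3, with replicate 3 well above background. Late Dunn cells had -3.82, -5.09 and -5.01, all well above background. LM8 arrays ranged from -8.68 to -8.26 early and from -9.20 to -8.44 late. No LM8 array was well above background, and all 6 lay below all 6 Dunn arrays. Early and late Dunn cells overlapped.

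Cdh2, the N-cadherin of mesenchymal and neural cells, was at -1.77, -2.26 and -1.98 in early LM8 replicates 1 to 3. Late LM8 cells had -3.64, -3.85 and -4.21. These 6 arrays were well above background, and the early and late arrays did not overlap. Early Dunn arrays had -4.41, -6.94 and -5.80, none of them well above background. In late Dunn cells replicate 1 was at -1.77, the level of early LM8 cells, while replicates 2 and 3 were at -7.85 and -7.47 and not well above background. The second Cdh2 probe gave the same picture in LM8 cells (-3.41 to -2.52 early, -4.82 to -4.55 late), but not on late Dunn replicate 1. There it was at -6.57 and not well above background, near its values in early Dunn cells (-7.02 to -5.77). The probes of Cdh2 followed each other at r = 0.828 over 12 arrays and at 0.974 over the 11 arrays without that one.

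Cdh15 (M-cadherin) is the cadherin of myoblasts and muscle satellite cells. Early LM8 replicates 1 to 3 had -5.91, -6.08 and -5.91, and late ones -5.47, -5.06 and -5.42. All were well above background, at processed signals between 14.8 and 56.9. Dunn arrays had -5.58, -7.60 and -6.35 early and -3.84, -7.03 and -7.32 late, with late replicate 1 alone well above background. The late LM8 arrays all lay above the early ones, and early LM8 and early Dunn arrays overlapped. The other muscle markers were mixed. Des (desmin), an intermediate filament protein of muscle, was well above background on all 6 LM8 arrays, at -3.47, -2.99 and -4.58 early and -2.62, -2.75 and -3.28 late, and on 4 of 6 Dunn arrays. It was not called between the LM8 passages (difference 0.79, SE 0.43, adjusted p = 0.314). Myod1, Myog, Myf5 and Pax7, the transcription factors of the muscle lineage and its satellite cells, were well above background on no array, and Ckm (muscle creatine kinase) was so on late Dunn replicate 1 and early LM8 replicate 2.

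Myogenic factors of the MyoD family bind the E-box, CANNTG. Among the members well above background on every LM8 array, Cdh15 was the one with an entry in the RefSeq promoter table, which held 3 of the 10 members. The sequence before its start is shown for this reason. The 250 bases before the start, at chr8:122848124-122848373 on the plus strand of GRCm38.p6, are given 5′ to 3′ with E-boxes in capitals:

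Cdh15: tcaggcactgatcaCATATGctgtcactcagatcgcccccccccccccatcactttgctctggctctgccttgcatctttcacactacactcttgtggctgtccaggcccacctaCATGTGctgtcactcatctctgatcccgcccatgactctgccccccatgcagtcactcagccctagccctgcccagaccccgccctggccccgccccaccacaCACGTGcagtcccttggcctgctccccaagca

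The window held 3 matches, which did not overlap. CANNTG reads the same on both strands, so 1 search covered both. Of 32851 windows of this length, 66.2% held at least 1 match and 12.2% held at least 3. A match is a description of the letters and not evidence of binding.

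The other 6 members had at most 1 array well above background. Cdh6 (K-cadherin, of kidney and neural crest) was at -3.05 on late Dunn replicate 1 and between -7.93 and -5.20 on the other 11 arrays. Cdh10, a type II cadherin of brain, was at -4.15 there and between -9.01 and -5.72 elsewhere. For Cdh13 the values were -3.68 and -9.40 to -5.37. In each case this array was the highest of the 12. The array's 7 of 10 epithelial and 5 of 9 endothelial markers above background stand beside these values, where 59.6% of all its probes were above background. The part of these markers in the values was not tested.

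Cdh1, measured with 10 spots of 1 probe, ranged from -9.32 to -5.34. Its highest value came from early Dunn replicate 1, where the lowest signal counted as well above background was -3.58. Cdh4 (R-cadherin, of retina and nervous system) was not well above background by any of its 3 probes. Cdh5 ranged from -8.86 to -4.64, with its highest value on late Dunn replicate 1, again short of being well above background. The signal of these genes is below what the arrays measure, which is not the same as no transcript.

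**Figure D3:**
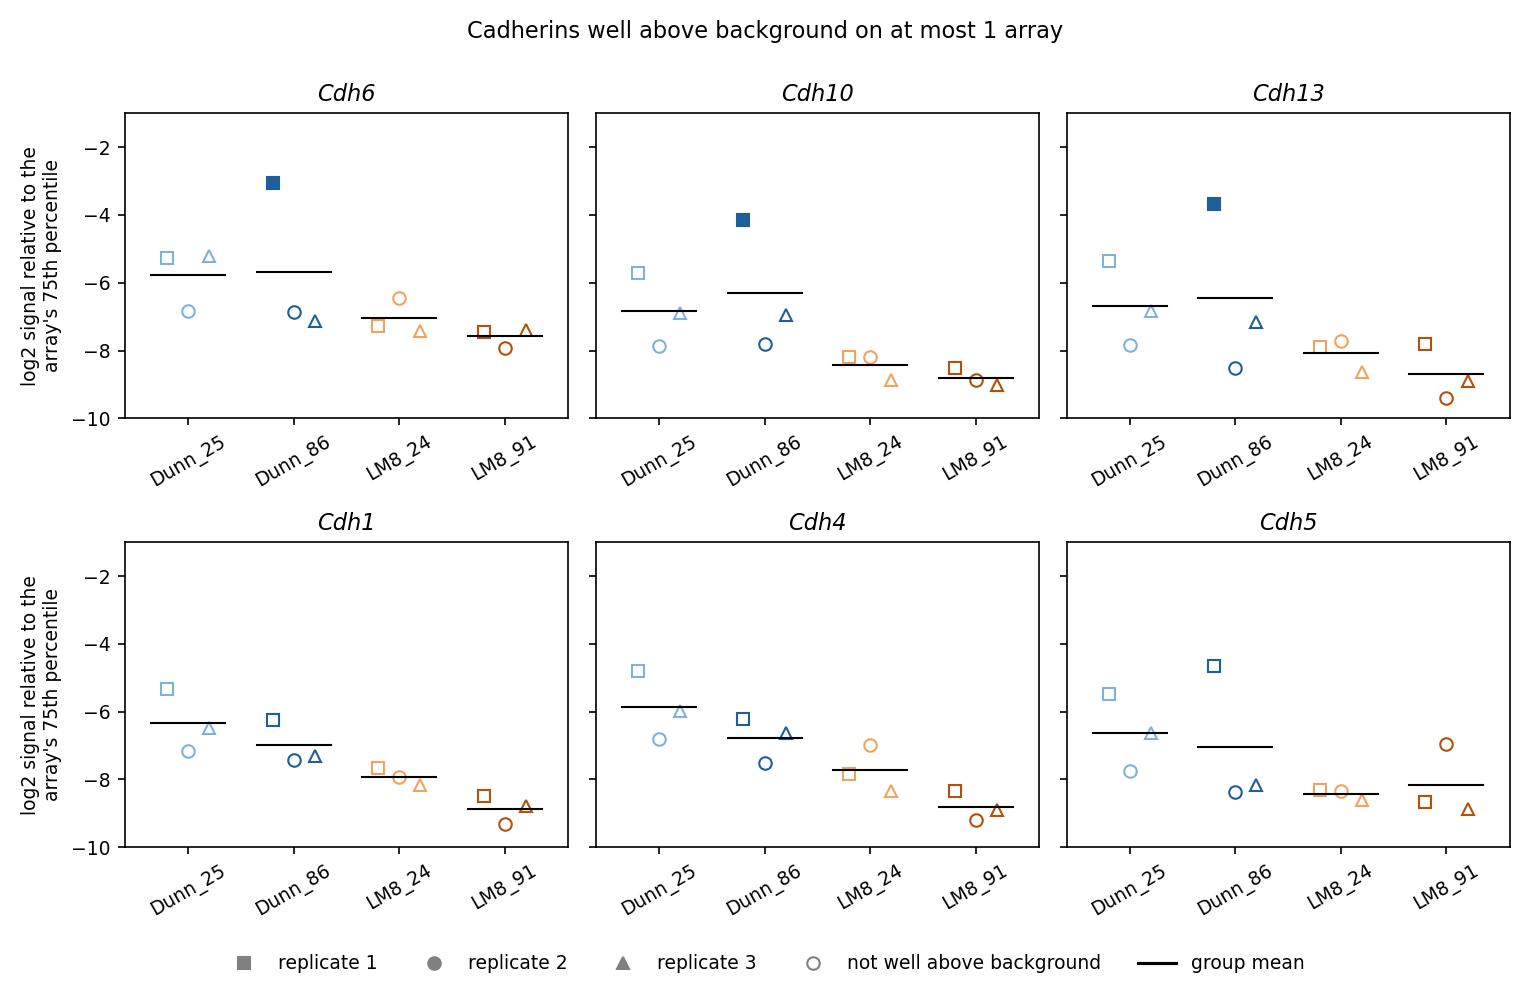
Log2 signal relative to the array's 75th percentile (vertical axis) of the 6 cadherins that were well above background on at most 1 array, by group (horizontal axis). Symbols are arrays (shape: replicate, open: not well above background) and lines are group means. The filled symbols in the upper row are late Dunn replicate 1.

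In the genome, 6 of the members lie on chromosome 8, in the order Cdh11, Cdh5, Cdh3, Cdh1, Cdh13 and Cdh15 of the GRCm38 annotation. No other protein-coding gene lies between Cdh11 and Cdh5, or between Cdh3 and Cdh1. In both of these pairs of neighbours, 1 gene had Dunn arrays well above background and the other had no array. Cdh6 and Cdh10 are on chromosome 15 with 1 protein-coding gene between them, and late Dunn replicate 1 was the highest array for both.

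Late and early Dunn cells were compared to see which members changed during long culture of the parental line. None of the 10 passed an adjusted p under 0.05 in limma, and none had an unadjusted p under 0.05. Over all probes, 0.00254% passed the adjusted level and 3.98% passed the level used in the study, which is a change of over 2-fold at an unadjusted p under 0.05. The median difference of the members was 0.06 and that of all probes -0.33. Cdh11 had the largest difference, -3.40 (SE 1.5, adjusted p = 0.782). Within slides 1, 2 and 3 it was 0.39, -5.06 and -5.53, so the first slide, which holds late Dunn replicate 1, went the other way. Without that array the Cdh11 difference was -5.15 (SE 0.41, adjusted p = 0.0396), at least 8.55-fold lower in late cells, with 2 of 3 early Dunn arrays well above background. Cdh11 was then called, which is not set against the share of all probes called in that fit. Cdh3 differed by 0.11 (SE 0.57, adjusted p = 0.998), and its sign turned to -0.53 with quantile normalization and to -0.99 with normexp background correction.

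Late and early LM8 cells were compared for the same question in the metastatic line. Cdh2 fell by 1.89 on the log2 scale (SE 0.24, adjusted p = 0.0109, n = 3 arrays per group), from -2.01 ± 0.25 to -3.90 ± 0.29 (SD). This is a 3.72-fold lower signal in late cells. It was lower within each slide, by log2 differences of -1.87, -1.59 and -2.22, and with the slide as a block the adjusted p was 0.0463. The second probe fell by 1.75 (SE 0.27, adjusted p = 0.0246), or 0.0916 with the block. Cdh2 was the 1 member of 10 called, where 2.19% of all probes were called. The call was lost without late LM8 replicate 2 (adjusted p = 0.0566) or replicate 3 (0.055). It was also lost in 1 fit over all 12 arrays (0.949, and 0.31 for the second probe), and the cause was not tested. Without late LM8 replicate 1 Cdh11 was called too, although no LM8 array measured it well above background. That call is not set against the share of all probes called in the same fit.

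Cdh15 was 1.57-fold higher in late than in early LM8 cells, a log2 difference of 0.65 (SE 0.20, adjusted p = 0.22), from -5.97 ± 0.09 to -5.32 ± 0.22 (SD, n = 3). It was higher within each slide, by 0.44, 1.01 and 0.49, but did not pass the test. Cdh2 and Cdh15 thus differed in sign between late and early LM8 cells, and the difference between the genes was not tested. At the study's level 3 members were lower and 0 higher (Cdh2, Cdh4 and Cdh11), beside 7.23% of all probes. Cdh4 and Cdh11 were well above background on no LM8 array.

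Early LM8 and early Dunn cells were compared to find members that differ between the metastatic and the parental line before long culture. In all 3 members passed, 1 higher and 2 lower in LM8 cells, beside 3.76% of all probes. Cdh2 was higher by 3.71 (SE 0.64, adjusted p = 0.0307), at least 6.72-fold, with means of -2.01 ± 0.25 in LM8 and -5.72 ± 1.27 in Dunn cells (SD, n = 3). Cdh11 was lower in LM8 by a log2 difference of -3.99 (SE 0.35, adjusted p = 0.003), at least 9.88-fold, with means of -7.19 ± 0.32 and -3.21 ± 0.38. Cdh3 was lower by a difference of -3.69 (SE 0.45, adjusted p = 0.00954), at least 3.4-fold, with means of -8.43 ± 0.22 and -4.75 ± 0.78. Folds are given as bounds because the dimmer group was not well above background on any array. The early Dunn arrays well above background were 2 of 3 for Cdh11 and 1 of 3 for Cdh3. Their brighter means thus include arrays that were not well above background, and the bounds for Cdh11 and Cdh3 are not strict. The arrays of both lines did not overlap for these 3 genes. They did not overlap for Cdh1, Cdh4, Cdh5 and Cdh10 either, which no array of these groups measured well above background. Non-overlap was thus not particular to the genes called. How many of all probes did not overlap was not counted, and 43.1% of all probes had an unadjusted p under 0.05 here. The non-overlap of members is therefore not read as a result about cadherins.

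Within slides 1 to 3 the differences were 2.64, 4.68 and 3.81 for Cdh2, -3.97, -3.92 and -4.07 for Cdh11, and -4.01, -2.73 and -4.33 for Cdh3. With the slide as a block, Cdh11 stayed under the threshold (adjusted p = 0.0238), whereas Cdh2 (0.0575) and Cdh3 (0.0506) did not. The second Cdh2 probe gave 3.51 (SE 0.44, adjusted p = 0.0104), or 0.0554 with the block, and the second Cdh11 probe -1.86 (SE 0.47, adjusted p = 0.0776). All 3 calls were lost with normexp background correction, where Cdh2 differed by 0.05 (adjusted p = 0.954), Cdh11 by -2.29 and Cdh3 by -2.18 (adjusted p = 0.0551 for both). Cdh11 alone was called without any 1 of the early LM8 arrays or without early Dunn replicate 3, and 9 members were called without early Dunn replicate 2, where 45.2% of all probes were called and 6 of the 9 were well above background on no early array. In 1 fit over all 12 arrays Cdh3 stayed called, and Cdh2 (adjusted p = 0.0811) and Cdh11 (0.0565) did not.

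Cdh15 differed by 0.54 between the early lines (SE 0.53, adjusted p = 0.444). This difference was 1.84 with quantile normalization (adjusted p = 0.0164), 2.01 in the unscaled table (adjusted p = 0.0394) and -1.65 with normexp (adjusted p = 0.0576), so its sign depends on the scaling. At the study's level 1 member was higher and 6 were lower, beside 38.6% of all probes, and the median difference of all probes was -0.85. The lower ones were Cdh3, Cdh11 and 4 genes that no array of either group measured above background (Cdh1, Cdh4, Cdh5 and Cdh10). The median of the 10 members was -1.59.

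Late LM8 and late Dunn cells were compared to see whether the line difference was present after long culture. Cdh3 was lower in LM8 cells by a log2 difference of -4.19 (SE 0.44, adjusted p = 0.0111), at least 4.63-fold, with means of -8.82 ± 0.38 and -4.64 ± 0.71 (SD, n = 3). It was the 1 member called, beside 2.91% of all probes, and it was lower within each slide (-4.62, -4.12 and -3.82). The adjusted p was 0.0582 with the slide as a block. The call was also lost without any 1 of the late LM8 arrays (0.063 to 0.0892), with normexp (difference -1.35, adjusted p = 0.11) and with a floor on dim signals (-2.21, adjusted p = 0.0643). Without late Dunn replicate 1 the difference was -3.78 (SE 0.29, adjusted p = 0.000862), at least 3.49-fold.

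Cdh2 differed by 1.79 between the late lines (SE 1.69, adjusted p = 0.455), from -1.87 on slide 1 to 4.00 and 3.26 on slides 2 and 3. Without late Dunn replicate 1 it was higher in LM8 cells by 3.76 (SE 0.27, adjusted p = 0.000703), at least 5.29-fold. Its second probe, which was not well above background on that array, gave 3.03 (SE 0.57, adjusted p = 0.0628) with all arrays and 3.6 (SE 0.32, adjusted p = 0.0016) without it. Cdh15 also moved with this array, with 0.75 (SE 0.98, adjusted p = 0.586) over all arrays and 1.86 (SE 0.25, adjusted p = 0.00822) without late Dunn replicate 1, at least 1.98-fold. With normexp and all arrays the signs of both turned, to -0.24 for Cdh2 and -0.57 for Cdh15. Cdh1 and Cdh4 were also called without late Dunn replicate 1, but no late array measured them well above background. Cdh11, which had differed between the early lines, differed by -0.40 between the late lines without that array (SE 0.41, adjusted p = 0.502), and late Dunn replicates 2 and 3 were then not well above background either. At the study's level 4 members were lower and 0 higher, beside 12.8% of all probes, and the medians were -1.97 for the members and -0.66 for all probes.

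**Figure D4:**
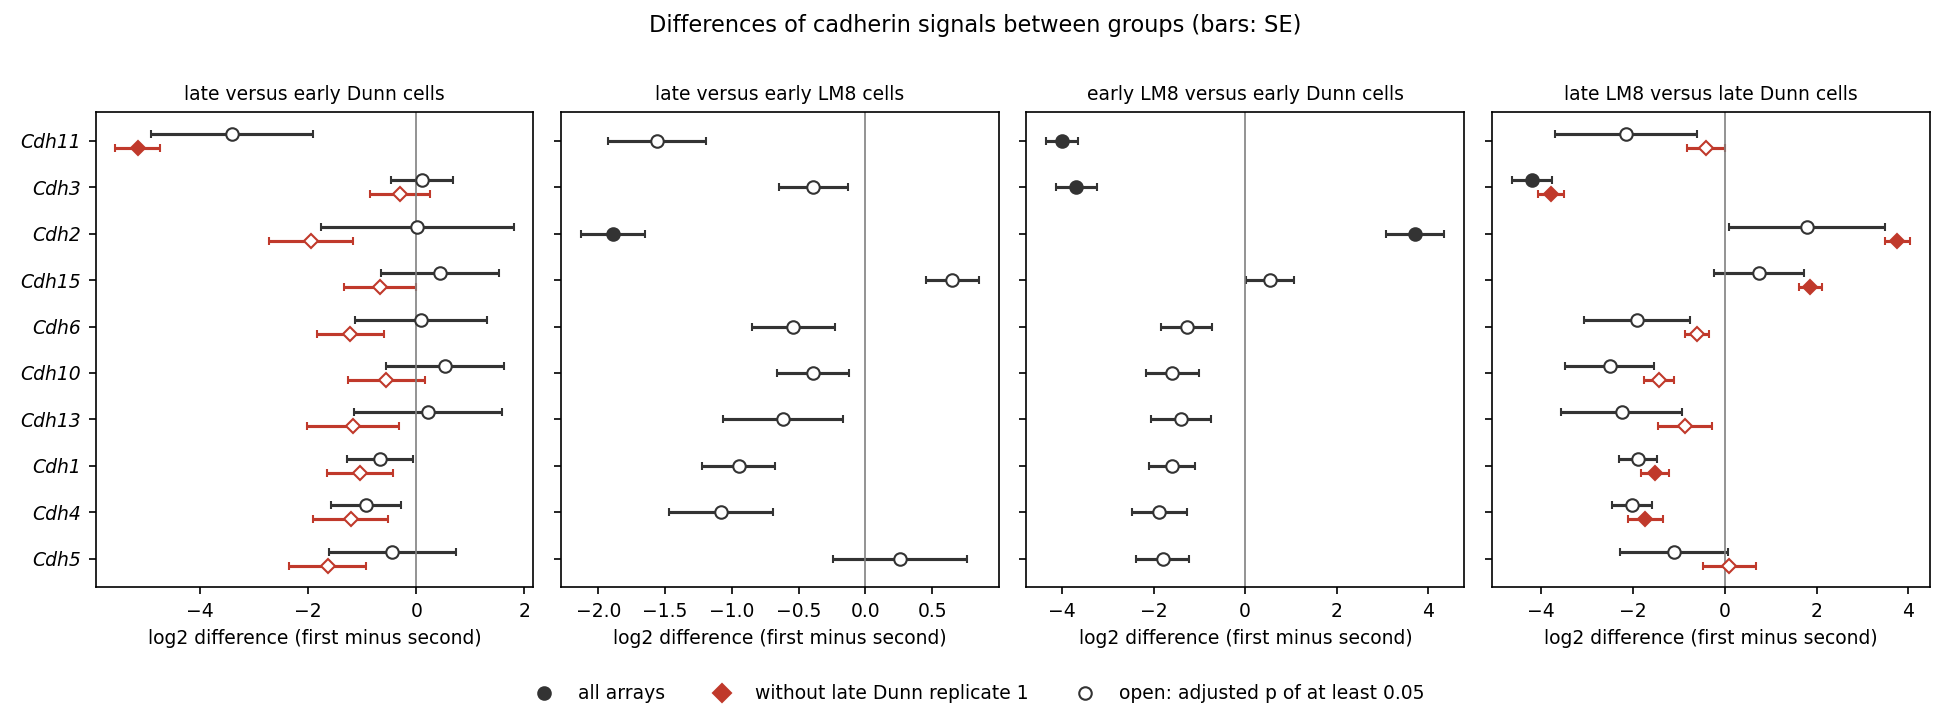
Log2 difference of each cadherin (horizontal axis, first group minus second, bars: SE) in the 4 comparisons, with all arrays (black circles) and without late Dunn replicate 1 (red diamonds). Filled symbols have an adjusted p under 0.05. Cdh3 is lower in LM8 cells at both passages, but both calls were lost with normexp and with the slide as a block. The values of Cdh11 in Dunn cells and of Cdh2 and Cdh15 between the late lines move with late Dunn replicate 1. With normexp the signs of Cdh2 and Cdh15 between the late lines turned.

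The interaction of line and passage asks whether long culture changed a member differently in LM8 and Dunn cells. No member passed in limma, none had an unadjusted p under 0.05, and 0.434% of all probes passed. For Cdh2 the change in LM8 was -1.89 and in Dunn 0.02, a difference of -1.92 (SE 1.91, adjusted p of 1). Without late Dunn replicate 1 this difference was 0.05 (SE 0.80, adjusted p = 0.982). No Dunn array of that fit measured Cdh2 well above background, so this value sets a measured change in LM8 cells against signals not measured well in Dunn cells. The passage effect of Cdh2 was therefore shown neither to differ between the lines nor to be alike in them. For Cdh11 the difference was 1.84 (SE 1.65, adjusted p of 1), and 3.59 (SE 0.55, adjusted p = 0.016) without that array. Both groups of LM8 arrays were below background for Cdh11, so this value compares a change in Dunn cells with signals that were not measured well in LM8 cells.

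The order of the group means differed by gene. For Cdh2 early LM8 cells were highest and late LM8 cells next, a difference that passed the test. Late LM8 and late Dunn cells did not pass, and the means of early and late Dunn cells (-5.72 and -5.69) did not differ beyond their spread (difference 0.02, SE 1.78). The late Dunn mean rests on replicate 1, and without it the difference was -1.94 (SE 0.78, adjusted p = 0.21), between signals that were not well above background. Late LM8 cells were highest for Cdh15, but none of the 4 comparisons passed for it with all arrays, and the late lines differed as given above without late Dunn replicate 1. Cdh3 had both Dunn groups together (-4.64 and -4.75) and both LM8 groups together (-8.43 and -8.82). For Cdh11 early Dunn cells were highest at -3.21, and the mean of late Dunn cells, -6.61, had an SD of 3.04.

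Genes with the signal most like that of a member were sought over the 12 arrays among 10921 genes that were well above background on at least 6 of them, as Cdh2 and Cdh15 were. The arrays share groups, slides and scaling, so that r is a description. Closest to Cdh2 were Col5a3 (r = 0.984), a fibrillar collagen chain, Prrt4 (0.962) and Kcnn4 (0.962), a calcium-activated potassium channel. Without late Dunn replicate 1 the values were 0.984, 0.957 and 0.97. Closest to Cdh15 were Fam83a (0.929), the homeobox gene Msx3 (0.916) and the phosphatase gene Dusp9 (0.916).

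Among 12 other cadherin genes, none passed in any of the 4 comparisons between groups, with 2 to 6 of them well above background per array. At an unadjusted p under 0.05 there were 0 and 2 between passages of Dunn and LM8, 5 between the early lines and 1 between the late lines, where 5.4%, 15.6%, 43.1% and 19.6% of all probes were. Cdh22 and Cdh8 had group means between 1.49 and 1.99 and between -3.81 and -2.27, and both were well above background on all 12 arrays. The catenins that carry cadherin tails were measured on every array. Ctnna1 (alpha-catenin) had group means between 4.39 and 5.26, Ctnnb1 (beta-catenin) between 2.08 and 3.90 and Ctnnd1 (p120-catenin) between 3.48 and 3.81, and none of the 3 was called. Of 13 catenins and related armadillo proteins, 0 were higher and 2 lower in early LM8 than in early Dunn cells, beside 3.76% of all probes. These were Pkp2 (plakophilin 2, a desmosome protein), which was 4.35-fold lower (log2 difference -2.12, SE 0.35, adjusted p = 0.0274, or 0.0793 with the slide block and 0.0551 with normexp), and Jup (plakoglobin), which 1 of 3 early Dunn arrays measured well above background. No gene of this list was called in the other 3 comparisons.

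Of 16 actin linkers and nectins of the adherens junction, Magi1 was the gene called. This scaffold protein of junctions was lower in LM8 cells both early (log2 difference -7.75, SE 0.53, adjusted p = 0.00123) and late (-8.95, SE 0.50, adjusted p = 0.00175), at least 174-fold in the late comparison. It was well above background on all 6 Dunn arrays and on 1 of 6 LM8 arrays, an early one, and the calls held with the slide block (adjusted p = 0.0185 and 0.0487). Early and late Dunn cells, and early and late LM8 cells, had no called gene of this list. Of 14 genes for the cleavage and turnover of cadherins, 0 were called in any of the 4 comparisons, with 1, 1, 4 and 2 at an unadjusted p under 0.05, beside 5.4%, 15.6%, 43.1% and 19.6% of all probes for the passages of Dunn and of LM8, the early and the late lines. The rule for naming genes gave here Adam15, with group means between 3.97 and 4.76, and Psenen, between 3.78 and 4.31, a protease and a subunit of gamma-secretase.

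Transcription factors that repress Cdh1 were called more than once. In early LM8 against early Dunn cells 2 of 10 were higher and 2 lower, beside 3.76% of all probes. Gsc (goosecoid) was higher by 4.00 (SE 0.54, adjusted p = 0.0144), at least 6.48-fold, and Twist1 by 2.67 (SE 0.49, adjusted p = 0.0385). Snai1 differed by -2.98 (SE 0.35, adjusted p = 0.0083) and Twist2 by -2.94 (SE 0.37, adjusted p = 0.0107). None of these 4 passed with the slide block (adjusted p from 0.0544 to 0.0746), and with normexp the differences of Gsc and Twist1 were 0.31 and 0.24.

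In late against early LM8 cells 2 of the 10 were lower, Zeb1 and Twist2, beside 2.19% of all probes. Zeb1 differed by -4.52 (SE 0.35, adjusted p = 0.00156), at least 7.96-fold, and Twist2 by -6.33 (SE 0.28, adjusted p = 0.000311), at least 17.9-fold. Both calls held with the slide block (0.0147 and 0.0115), but with normexp Zeb1 differed by -1.06 (adjusted p = 0.124) and Twist2 by -2.16 (0.00125). Between the late lines Snai1 was lower in LM8 cells by a difference of -4.16 (SE 0.45, adjusted p = 0.0122), or 0.106 with the block. Cdh1 itself was well above background in none of these groups.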

How the data were processed

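Members and gene lists were chosen with earlier results of these data known. The deposited scanner files (Agilent Feature Extraction 10.7.3, per the labels) hold a background-subtracted intensity per spot. The authors' series table holds the same intensity, within 0.497%, without scaling between arrays. Control and outlier spots were left out, spots of a probe were averaged as log2 values, and each array's 75th percentile was subtracted. Accessions were matched to RefSeq genes of GRCm38.p6, which named 67.4% of probes. A gene's value was that of its probe with the highest mean signal. All members were named. Genes of other lists were named at an adjusted p under 0.05 with all 3 arrays of the higher group well above background, or else the 2 with the highest mean. Groups were compared in limma 3.58.1 (R 4.3.3; lmFit, eBayes) over the 6 arrays concerned, and the interaction over 12, with Benjamini-Hochberg adjustment over all probes. A bound on a fold sets the brighter mean against the dimmer group's mean of the higher of its own signal and the lowest signal well above background on each array. The brighter mean is over all arrays of its group, so the bound is not strict where some of them were not well above background.

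Replicate numbers mark slides, as the array barcodes in the files show. Deviations from group means correlated within slides at -0.067 to 0.683 over the 4 comparisons, and the slide was fitted as a block as an alternative. The others were quantile normalization, normexp (offset 50, on median signals, since the files used here hold no mean signal), the unscaled table, a floor, a filter on dim probes, the methods' t-test, 1 fit over 12 arrays, the mean of probes and leaving out each array. Signal over background, and 3 arrays per group, limit the precision. The fits were tested on simulated data. RNA was extracted with TriReagent according to the paper and RNeasy according to the labels.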

Additional observations from a re-analysis of the deposited data

How the results depend on the processing

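Counts of members called depended on the setting. Between early LM8 and early Dunn cells (3 called) the count was 5 with quantile normalization, 4 in the unscaled table, 0 with normexp and 9 with a floor on dim signals, where 8.69%, 8.86%, 0.538% and 48.3% of all probes were called (3.76% in the reported fit). It was 1 with the filter on dim probes (Cdh2), with the methods' t-test and the replicate block (Cdh11 in both), and with the fit over 12 arrays (Cdh3). It ran from 1 to 9 when single arrays were left out (9 without early Dunn replicate 2, with 45.2% of all probes called). Between late LM8 and late Dunn cells (1 called) it was 2 with quantile normalization and with the fit over 12 arrays, 0 with normexp, the floor and the replicate block, and 0 to 5 without single arrays (5 without late Dunn replicate 1, where 8.33% of all probes were called). For late against early LM8 cells (1 called) it was 0 with the unscaled table, the t-test and the fit over 12 arrays, 1 with the replicate block, and 0 to 2 without single arrays. For late against early Dunn cells and for the interaction (0 called in each) it was 0 with the replicate block and 0 to 1 without single arrays. The block on the slide, which pairs the replicates, changed no other call of a member. Leaving out both Dunn arrays of slide 1, chosen after seeing the data, gave 1 call in Dunn cells and 1 in the interaction. Between the late lines it gave 5, which is the fit without late Dunn replicate 1 (8.33% of all probes called). Where no share of all probes stands beside a count, it cannot be told whether the count exceeds that share.

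The median over all probes between the early lines was -0.85, against -0.14 with quantile normalization, -1.6 with normexp and 0.61 unscaled, so signs of small differences moved. The passage difference of Cdh3 in Dunn cells (0.11) was -0.53 with quantile normalization, -0.99 with normexp, -0.11 with the floor, -0.05 without the Dunn arrays of slide 1, and -0.34 to 0.36 without single arrays. Cdh15 between the early lines (0.54) was -1.65 with normexp and -1.21 with the floor. Between the late lines normexp gave -0.24 for Cdh2 and -0.57 for Cdh15. In the interaction Cdh3 (-0.50) was 0.65 with quantile normalization and 0.83 with normexp, Cdh15 (0.20) was -0.49 with quantile normalization, -0.40 unscaled and -0.43 to 1.32 without single arrays, and Cdh2 (-1.92) was -2.99 to 0.05 without single arrays. The cause was not tested. Of 250 single differences recomputed, 193 kept their sign and side of the threshold, 28 no longer passed, 11 newly passed and 18 changed sign.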
